A study of Homo sapiens with 23 samples.

Results

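The TGF-beta receptor genes TGFBR1 and TGFBR2, the SMAD genes SMAD2, SMAD3, SMAD4, SMAD6 and SMAD7 and the target genes ID1, ID2 and ID3 were followed through every histone acylation list of the study, 10 genes of 20033 protein-coding genes. They were chosen by name. Each was represented by its GENCODE 44 gene body with 5 kb on both sides, called its window. TGF-beta ligands bind a type II receptor (TGFBR2) that activates the type I receptor (TGFBR1), which phosphorylates SMAD2 and SMAD3. These join the common partner SMAD4, enter the nucleus and act on target genes, among them the inhibitory SMADs SMAD6 and SMAD7, which feed back on the receptors, and the ID genes, which encode inhibitors of helix-loop-helix transcription factors and are classical targets of the related BMP branch. In colon epithelium the pathway restrains growth, and it is often disabled in colorectal cancer.

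ChIP-seq was performed in SW480, an established human colorectal cancer cell line, with antibodies to propionylated (pr), butyrylated (bu) or acetylated (ac) lysine 18 of histone H3 or lysine 12 of histone H4. The H3K18pr, H4K12pr, H3K18ac and H4K12ac groups labelled NaPr came from cells given 10 mM sodium propionate, the H3K18bu, H4K12bu, H3K18ac and H4K12ac groups labelled NaBu from cells given 1 mM sodium butyrate, both for 12 to 16 h, and the remaining H3K18ac and H4K12ac groups from untreated cells. Each of the 10 groups held 2 replicates, and 1 input list (chromatin without immunoprecipitation) stood beside each of the 3 conditions. All groups shared the same parental line, and nothing in the labels says whether replicates were separate cultures, so p-values measure only the spread between these libraries.

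The lists held 8158 to 208823 regions in the 20 immunoprecipitated libraries and 30386 to 93923 in the inputs. Both H4K12bu lists and H4K12ac NaBu replicate 2 were the shortest, with 8158, 9642 and 11680 regions. H3K18ac NaPr replicate 1, with 202787 regions, was far longer than its partner with 95194, and results that rest on it are also given without it. Run tags in the list names place the propionyl libraries in 1 run, the NaPr and untreated acetyl libraries in another and all NaBu libraries in one of their own. Comparisons of propionyl with acetyl marks and of NaBu with untreated cells therefore coincide with the run, and run and group cannot be told apart there. Butyryl against acetyl in NaBu, acetyl NaPr against untreated, and H3K18 against H4K12 fall within 1 run. Starts of the 6 colon epithelial genes examined (EPCAM, KRT8, KRT18, KRT19, CDX2, VIL1) were occupied in 10 to 20 of the 20 libraries, and those of 8 genes of other cell types in 0 to 11, with PTPRC, HBB and ALB at 0.

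SMAD3, the receptor-activated SMAD on chr15:67063763-67195173 (+ strand), held one site common to every immunoprecipitated library. A stretch of 226 bp in intron 1, centred 15417 bp past the canonical start, lay inside a region in 20 of 20 libraries and in 0 of 3 inputs. A second site in the same intron, 41013 bp past the start, held the best-ranked region of the window in 8 libraries and a region in 19 of 20. Sites, here and below, were placed where best-region summits of at least 3 of the 20 libraries linked within 1 kb. Which libraries had their best region at a site is therefore not independent of the choice of the site. Below, 200 bases around each are given on the strand of the gene, with the stretches shared by the most libraries in TGFBR2 and SMAD7 and upstream of ID1, because these carry the site-level results. Bases are those of the hg38 reference genome. Capitals mark CAGAC or its reverse complement GTCTG, the core letters that SMAD proteins are known to contact.
SMAD3 intron 1, near site, chr15:67080920-67081119: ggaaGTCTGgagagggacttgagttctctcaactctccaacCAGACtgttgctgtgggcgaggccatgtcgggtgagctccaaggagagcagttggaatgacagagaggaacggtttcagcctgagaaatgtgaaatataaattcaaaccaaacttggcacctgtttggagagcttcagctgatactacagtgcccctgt
SMAD3 intron 1, far site, chr15:67106516-67106715: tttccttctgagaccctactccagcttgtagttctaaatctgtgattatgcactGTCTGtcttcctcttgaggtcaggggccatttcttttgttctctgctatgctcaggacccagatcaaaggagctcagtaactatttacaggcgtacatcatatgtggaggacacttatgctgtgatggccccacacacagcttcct
TGFBR2 intron 6, chr3:30689464-30689663: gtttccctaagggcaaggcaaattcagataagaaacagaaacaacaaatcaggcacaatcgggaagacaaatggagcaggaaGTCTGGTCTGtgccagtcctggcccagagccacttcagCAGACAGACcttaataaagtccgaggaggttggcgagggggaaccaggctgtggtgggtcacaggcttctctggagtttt
SMAD7 intron 2, chr18:48943534-48943733: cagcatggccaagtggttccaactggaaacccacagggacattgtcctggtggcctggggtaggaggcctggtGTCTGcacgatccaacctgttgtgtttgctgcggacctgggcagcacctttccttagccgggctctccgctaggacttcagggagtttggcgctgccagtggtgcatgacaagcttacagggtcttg
ID1 upstream, chr20:31604601-31604800: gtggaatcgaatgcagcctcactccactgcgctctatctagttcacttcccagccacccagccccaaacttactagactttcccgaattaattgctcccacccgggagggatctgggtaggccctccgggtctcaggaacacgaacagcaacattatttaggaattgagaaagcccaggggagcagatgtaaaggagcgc

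The letters CAGAC, searched on both strands, stood in 6 of the 9 stretches that members share across libraries and in 34.4% of the 200 bp windows centred on every region summit of the 20 libraries. TGFBR2 held 4 copies in its stretch and ID1 none. The palindrome GTCTAGAC, known as the optimal SMAD element, stood in none of the 9 stretches and in 0.118% of the summit windows. It was found in 1 of the 25 RefSeq promoters of the 10 genes, that of SMAD6, against 0.182% of the 35116 promoters of the RefSeq table (build GRCh38.p14, 250 bases before the start). The BMP-SMAD element GGCGCC stood in 0 of the 9 stretches and in 3.92% of the summit windows, and in 5 of the 25 member promoters and 16.4% of all promoters. The AP-1 element TGACTCA stood in 0 of 9 stretches, 3.25% of the windows, 1 of 25 member promoters and 4.20% of all promoters. The GC box, GGGCGG, stood in 1 of 9 stretches, that of TGFBR1, 8.39% of the windows, 12 of 25 member promoters and 42.6% of all promoters. CAGAC itself stood in 9 of 25 member promoters and 38.0% of all promoters. The SMAD6 promoter is printed with the palindrome in capitals.
SMAD6 promoter, chr15:66701986-66702235: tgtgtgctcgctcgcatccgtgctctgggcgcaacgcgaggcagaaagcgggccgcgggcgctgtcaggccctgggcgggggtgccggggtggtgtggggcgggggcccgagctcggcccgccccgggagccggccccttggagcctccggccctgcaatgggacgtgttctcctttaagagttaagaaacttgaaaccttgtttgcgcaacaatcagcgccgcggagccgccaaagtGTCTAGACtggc

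SMAD3 held the most regions of any member in each of the 20 immunoprecipitated lists. Rank here orders the regions of 1 list by their −log10 p-value, with 1 the strongest. SMAD3 also held the best-ranked member region in each of them except H3K18ac NaBu replicate 1, where ID1 (rank 1773) and SMAD2 (rank 2736) stood before SMAD3 (rank 3299). The far site of intron 1 was ranked 116 and 115 in the H3K18pr replicates and 169 and 225 in the H4K12pr replicates, which is the top 0.102% to 0.184% of these lists. The fold enrichments there were 88.8 and 51.6 (H3K18pr) and 28.97 and 26.04 (H4K12pr). In the acetyl libraries of NaPr cells the same site was ranked 2230 and 303 (H3K18ac) or 392 and 962 (H4K12ac), and in the untreated libraries between 3020 and 5416. Ranks compare regions only within a list, and the propionyl lists hold no region under 340 bp whereas those of the other immunoprecipitated libraries go down to 165 to 265 bp.

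The order of the 2 sites is a description, since both were chosen from the best regions of these same libraries, and no effect of treatment on it was tested. The far site ranked before the near site in 8 of 8 NaPr libraries, where the near site was ranked 1581 to 4744. The near site came first in 4 of 4 untreated libraries, at ranks 2879 to 3834, and in 7 of 8 NaBu libraries. In NaBu the near site was ranked 937 to 3497 and the far site 1301 to 8867 in the 7 libraries that held it. The best SMAD3 region lay at the near site in 7 NaBu libraries and 1 untreated library, at the far site in 7 NaPr libraries and 1 NaBu library, and elsewhere in the window in the other 4. The weakest H4K12bu list, replicate 2, held the near site at rank 2071 and had no region at the far site. Of the inputs, the NaBu input held a region at the far site, ranked 35524 with a fold of 3.41, and the NaPr input held a region elsewhere in the window, 98352 bp past the start, that was ranked 646. A SMAD3 window of 141411 bp offers more room for a strong region than that of an ID gene. In the 4 propionyl lists 0.424% to 0.839% of all protein-coding windows held a better rank than SMAD3, and 1.93% did in the NaPr input.

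**Figure D1:**
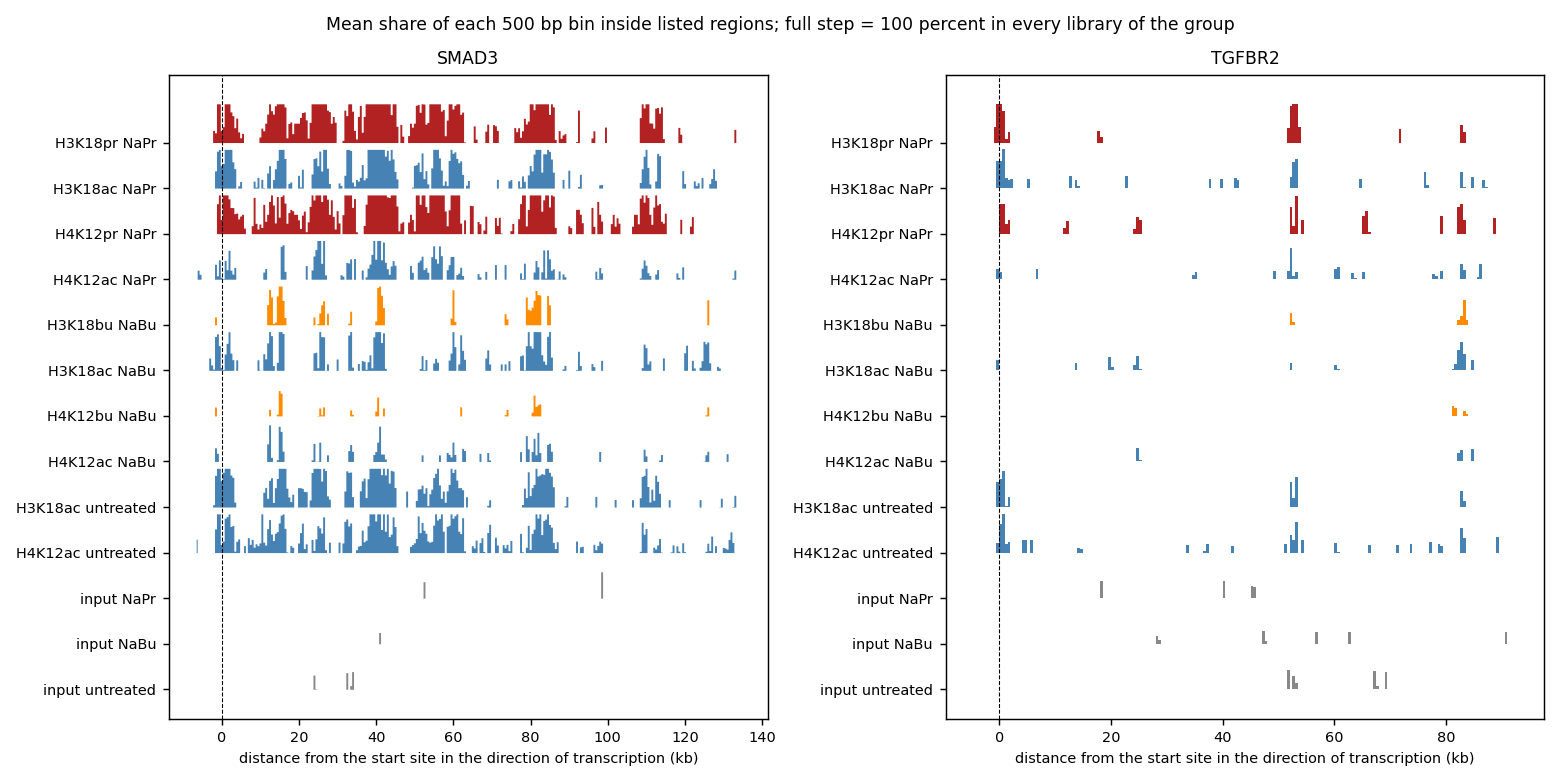
SMAD3 (left) and TGFBR2 (right): the mean share of each 500 bp bin inside listed regions (height) against distance from the start in kb, 1 row for each group or input, with propionyl in red, butyryl in orange, acetyl in blue and input in grey. In SMAD3 the 2 sites of intron 1, 15390 and 41013 bp past the start, stand in nearly every immunoprecipitated group, and in TGFBR2 the NaBu groups keep mainly the site 82930 bp past the start.

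Coverage is the percentage of a window inside regions. For SMAD3 the H3K18pr replicates had 47.5% and 34.4%, the H4K12pr replicates 48.7% and 37.6%, those of H3K18ac NaPr 28.1% and 27.7% and those of H4K12ac NaPr 15.3% and 13.4%. It was 35.5% and 22.1% in H3K18ac untreated and 31.8% and 25.8% in H4K12ac untreated. The NaBu libraries had 18.95% and 17.7% (H3K18ac), 9.51% and 2.64% (H4K12ac), 7.80% and 6.48% (H3K18bu) and 2.04% and 1.74% (H4K12bu), and the inputs 0.103% to 0.480%. All 20 immunoprecipitated values stood above the 3 inputs, all 4 propionyl values above the 4 acetyl values of the same cells, and all 4 butyryl values below the H3K18ac NaBu pair. The start of SMAD3 was occupied, meaning a region within 1 kb of the canonical start, in 15 of 20 libraries, in all NaPr and untreated ones but in 3 of 8 NaBu ones.

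SMAD2, the other receptor-activated SMAD, on chr18:47808957-47931146 (− strand), was covered far less, at 0% to 1.78% of its window. In SMAD2 the regions sat at the start, which was occupied in 15 of 20 libraries, 10 of 10 for H3K18 marks and 5 of 10 for H4K12 marks. H4K12ac NaPr had no region in either replicate, whereas H4K12ac untreated covered 1.53% and 0.769% and H3K18ac NaPr 1.37% and 1.04%. H3K18bu covered 0.533% in both replicates and H4K12bu 0% in both. Chromosome 18 was sparse as a whole, with a median of 0.820% of a gene window covered against 3.11% over all genes.

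SMAD4, the common partner of all receptor-activated SMADs, on chr18:51028528-51085045 (+ strand), had no region in any of the 23 lists, inputs included. The region-free stretch ran from 50969237 to 51097735 on chromosome 18, 128499 bp, from 59.3 kb before the 5′ end of SMAD4 to 12.7 kb past its 3′ end. The genes on either side were marked, with the start of ELAC1 occupied in 12 of 20 libraries and that of MEX3C in 17. These neighbours were picked for their position. Of 20033 protein-coding windows, 631 (3.15%) had no region in any list, and of the 5878 autosomal windows at least as long as that of SMAD4, 12 had none. Copy number and the number of reads that can be placed in this stretch were not tested. SMAD4 therefore entered no test below, and 9 members were tested.

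**Figure D2:**
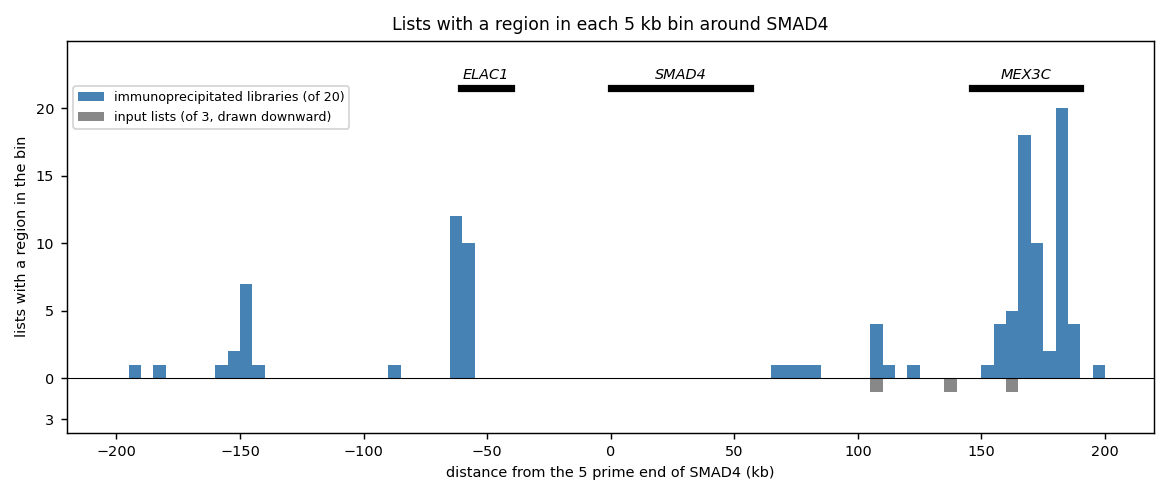
Number of lists with a region in each 5 kb bin within 200 kb of the 5′ end of SMAD4, immunoprecipitated libraries upward (of 20) and inputs downward (of 3), with gene bodies as black bars. No list has a region from 59.3 kb before the 5′ end of SMAD4 to 12.7 kb past its 3′ end.

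TGFBR2, the type II receptor gene on chr3:30606601-30694142 (+ strand), was marked at its start and at sites in introns 3 and 6. The start was occupied in 8 of 8 NaPr libraries, 4 of 4 untreated ones and 1 of 8 NaBu ones. The intron 6 site, 82930 bp past the start, was held by 17 of 20 libraries and 0 of 3 inputs and was the best region in 7 of 8 NaBu libraries and 1 other. The intron 3 site, 53174 bp past the start, was held by 7 of 8 NaPr, 4 of 4 untreated and 0 of 8 NaBu libraries, and by the untreated input at rank 21751. In NaBu the intron 6 regions were modest, with folds from 2.72 to 7.28 where present. The best TGFBR2 region was ranked 2188 in the untreated input and 5589 in the NaBu input. There 9.24% and 12.8% of all protein-coding windows held a better rank, and 45.7% did in the NaPr input. In the immunoprecipitated libraries this share was lowest at 15.7%, in H3K18pr replicate 2.

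TGFBR2 coverage in the H3K18pr replicates was 4.04% and 5.03%. H4K12pr had 5.03% and 4.67%, H3K18ac NaPr 4.73% and 4.06%, and H4K12ac NaPr 2.88% and 2.17%. Untreated libraries had 2.77% and 2.15% (H3K18ac) and 5.42% and 4.20% (H4K12ac). In NaBu it was 2.14% and 1.88% for H3K18ac, 1.06% and 0.190% for H4K12ac, 0.913% and 0.617% for H3K18bu and 0.192% and 0.473% for H4K12bu. The 4 butyryl values lay below every NaPr and untreated value. Of them 0.913% lay within the range of the inputs, 0.755% to 1.02%, and the other 3 below it.

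TGFBR1, the type I receptor gene on chr9:99104038-99154192 (+ strand), was marked close to its start, with a site in intron 1, 704 bp past the canonical start, in 9 of 20 libraries. Its start was occupied in 4 of 4 untreated libraries, 5 of 8 NaPr and 2 of 8 NaBu ones, and in the untreated input. No region fell in its window in the 4 butyryl libraries and the 2 H4K12ac NaBu libraries. TGFBR1 coverage in H3K18ac NaPr was 10.8% in replicate 1 and 0.645% in replicate 2. In the other groups with regions it ranged from 0.426% to 6.37%, and the inputs had 0.269% to 1.56%, so that the ranges overlapped. In the inputs 14.5% to 23.8% of all protein-coding windows held a better rank than TGFBR1. In the immunoprecipitated libraries with a TGFBR1 region this share was lowest at 35.5%, in H3K18ac untreated replicate 1.

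SMAD7, which blocks the type I receptor, on chr18:48919853-48950965 (− strand), was covered by H3K18pr at 34.6% and 17.9% and by H4K12pr at 31.1% and 13.7%. The acetyl libraries of NaPr cells had 32.7% and 9.68% (H3K18ac) and 1.83% and 1.57% (H4K12ac). Untreated cells had 55.97% and 32.6% (H3K18ac) and 34.9% and 30.7% (H4K12ac). The H4K12ac NaPr pair lay below every other NaPr and every untreated library. In NaBu cells H3K18ac covered 24.6% and 29.3%, H4K12ac 6.29% and 0%, H3K18bu 5.03% and 3.59% and H4K12bu 0.440% and 0%. The intron 2 stretch printed above was shared by 14 of 20 libraries. A site nearby in intron 2, 7850 bp past the start, was held by 14 of 20 libraries and 1 of 3 inputs. Another site at -1589 bp from the start was held by 13 of 20, 2 of 8 in NaBu, and by 0 inputs. The untreated input held a SMAD7 region at rank 1200, and 5.64% of all protein-coding windows held a better rank. In the immunoprecipitated libraries this share was lowest at 8.37%, in H4K12ac NaPr replicate 2. The SMAD7 start was occupied in 8 of 10 H3K18 libraries and 1 of 10 H4K12 libraries.

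SMAD6, the other inhibitory SMAD, on chr15:66702236-66782849 (+ strand), was covered at 15.1% and 7.91% in H4K12pr and 8.05% and 5.23% in H3K18pr. H4K12ac NaPr covered 1.48% and 0.778%, H4K12ac untreated 6.83% and 4.55%, and H4K12ac NaBu 3.02% and 0.616%. H3K18ac covered 5.01% and 3.68% in NaPr, 8.53% and 6.29% in NaBu and 9.20% and 6.62% in untreated cells. H3K18bu covered 0.579% and 1.12%, and H4K12bu had no region. The 4 propionyl values lay above the values of H4K12ac NaPr, H3K18ac NaPr and H3K18bu. They overlapped those of H3K18ac NaBu and of both untreated groups. Sites in intron 3, 47979 and 64098 bp past the start, were held by 15 and 13 libraries and no input.

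ID1, on chr20:31605283-31606515 (+ strand), had the most widely occupied start, in 18 of 20 libraries. A site at -497 bp from the start was held by 17 of 20 libraries and no input. The untreated input held an ID1 region elsewhere in the window, at rank 3682, and 13.9% of all protein-coding windows held a better rank. In the immunoprecipitated libraries this share was lowest at 8.96%, in H3K18ac NaBu replicate 1, and it was 24.0% to 63.2% in the untreated acetyl libraries. For ID1 the H3K18pr replicates covered 41.6% and 28.6%, H4K12pr 42.7% and 29.98%, H3K18ac NaPr 27.7% and 29.99%, and H4K12ac NaPr 2.07% and 0%. It was 57.2% and 55.6% in H3K18ac NaBu, 53.5% and 33.8% in H3K18ac untreated and 22.8% and 19.6% in H4K12ac untreated. H4K12ac NaBu had 16.6% and 6.46%, H3K18bu 21.1% and 13.6%, and H4K12bu 6.22% and 0%, against at most 1.82% in an input. H4K12ac NaPr and the H4K12bu pair were the low groups, and the 2 H3K18ac NaBu values stood above all others. ID1 was the only member whose start H4K12bu occupied, in 1 of its 2 replicates.

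ID2, on chr2:8678845-8684461 (+ strand), was marked at -2484 bp from its canonical start in 16 of 20 libraries and 0 inputs. ID2 coverage was highest in H3K18ac untreated, 42.6% and 38.01%, and 33.8% and 22.8% in H3K18ac NaPr, 32.7% and 23.8% under H3K18pr, 25.9% and 18.01% under H4K12pr, and 27.6% and 25.9% in H4K12ac untreated. It was 18.3% and 12.6% in H3K18ac NaBu, 7.04% and 0% in H4K12ac NaBu, 6.74% and 1.43% in H3K18bu, 4.67% and 0% in H4K12bu and 2.18% and 1.42% in H4K12ac NaPr. The NaBu libraries and H4K12ac NaPr lay below all other NaPr and untreated libraries, except that H3K18ac NaBu replicate 1 stood just above the lower H4K12pr value. The antisense gene ID2-AS1 shares this window, and a peak list does not tell the 2 genes apart.

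ID3, on chr1:23557926-23559501 (− strand), was covered at 30.6% and 22.7% in H3K18ac untreated, 18.4% and 13.4% in H4K12ac untreated, 19.2% and 13.4% in H4K12pr and 7.49% and 18.1% in H3K18pr. H3K18ac covered 24.6% and 7.45% in NaPr and 15.1% and 4.11% in NaBu, and H4K12ac 0% and 1.55% in NaPr and 7.75% and 0% in NaBu. The 4 butyryl libraries had no region in the ID3 window. The NaPr input covered 5.87% of it, more than either H4K12ac NaPr library. Regions lay mostly at -328 bp from the start, in 9 libraries, or 4175 bp past the start and beyond the 3′ end, in 9 libraries.

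**Figure D3:**
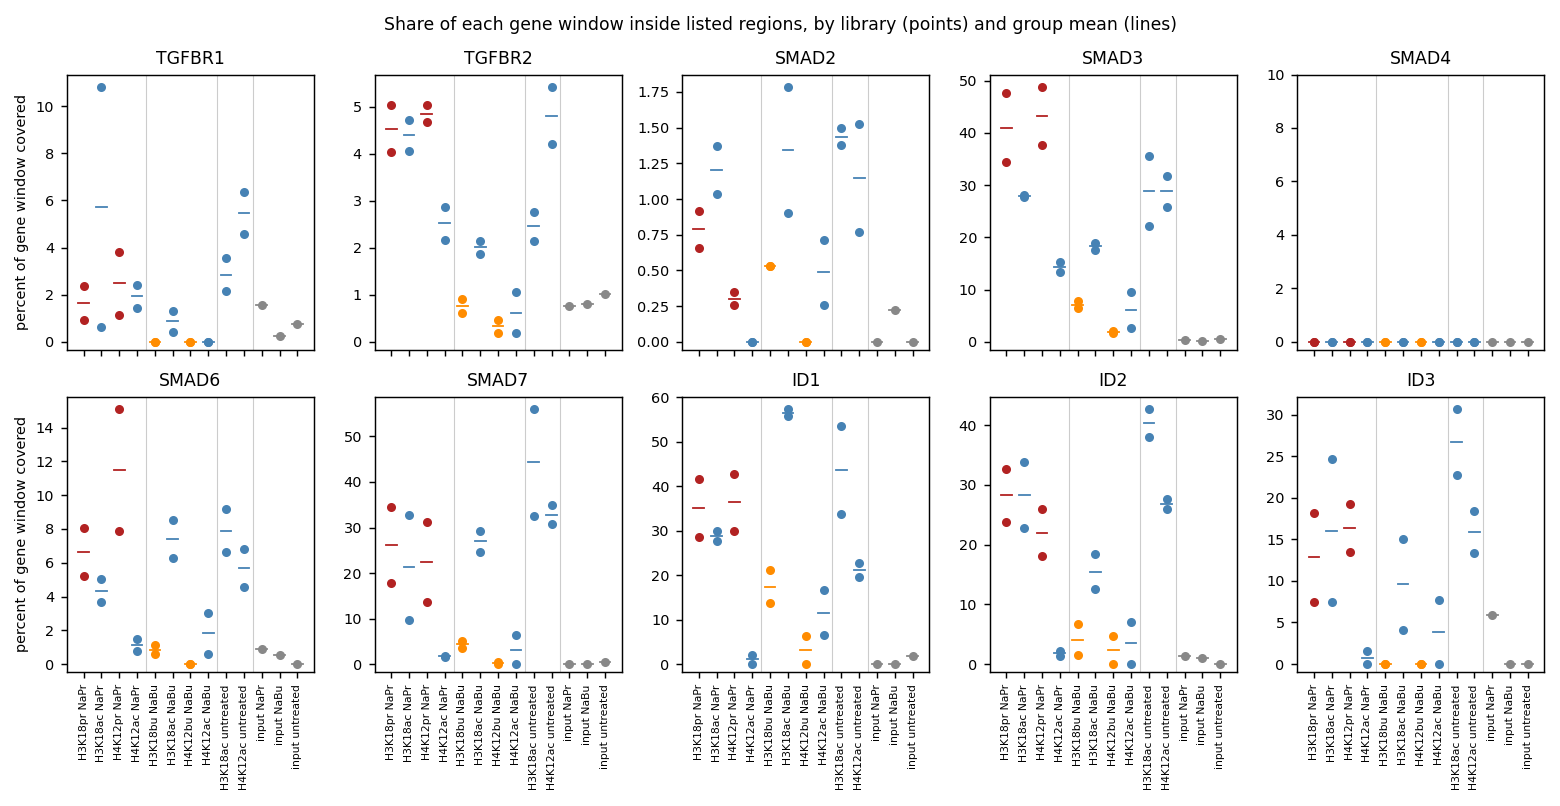
Percentage of each gene window inside listed regions (vertical axis, scaled per gene) in the 23 libraries, as points by group, with lines for group means; propionyl red, butyryl orange, acetyl blue, input grey. SMAD3 stands at 34.4% to 48.7% in the 4 propionyl libraries, and SMAD4 at 0% in all 23.

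Starts occupied in both replicates numbered 9 of 10 members for H3K18ac untreated (64.6% of all genes), 8 for H4K12ac untreated (61.7%), 8 for H3K18ac NaPr (53.8%) and 7 for H3K18pr (44.2%). They numbered 7 for H3K18ac NaBu (44.1%), 5 for H4K12pr (50.7%), 2 for H4K12ac NaPr (19.7%), 2 for H4K12ac NaBu (14.2%), 2 for H3K18bu (10.1%) and 0 for H4K12bu (5.62%). The H3K18bu and H4K12ac NaBu starts were those of SMAD2 and ID1 in both groups, and the H4K12ac NaPr starts those of SMAD3 and TGFBR2. Groups with a larger share of all genes mostly had more members, but H4K12pr had fewer members than H3K18pr and H3K18ac NaBu at a larger share. The start of TGFBR1 in the untreated input was the only occupied member start in an input. Counted without replicate 2, H4K12ac NaBu reached 5 (35.1% of all gene starts), H4K12ac NaPr 4 (34.5%), H4K12pr 8 (63.1%) and H4K12bu 1 (11.1%), and these shares of all starts were also above those in both replicates.

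**Figure D4:**
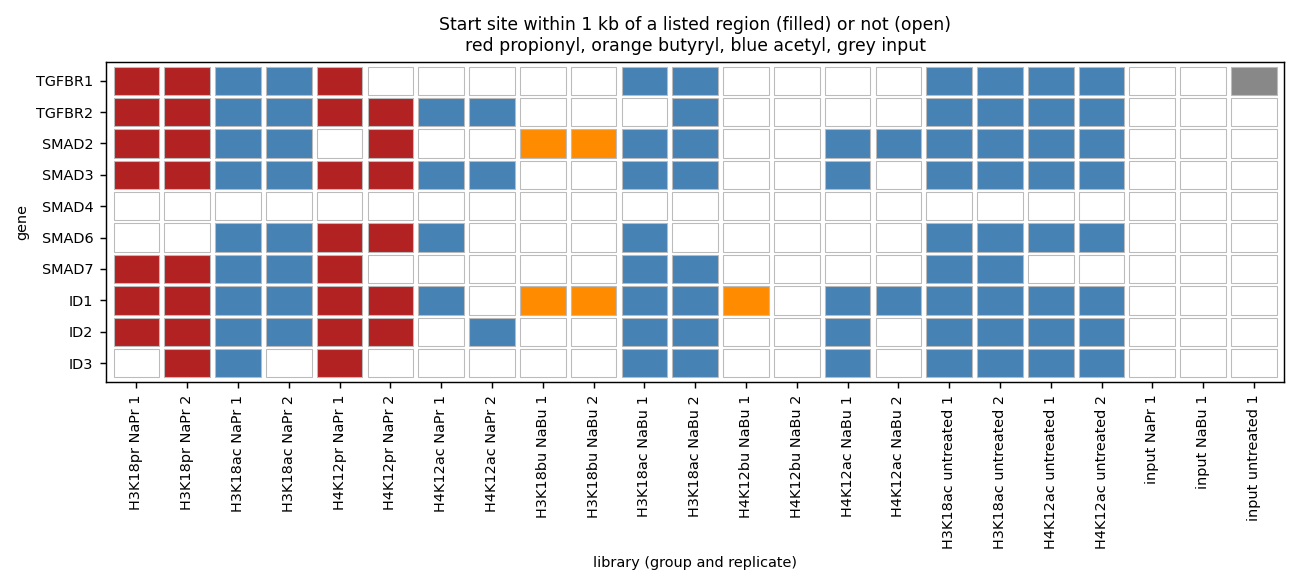
Member starts with a region within 1 kb (filled) or without (open), 1 column for each of the 23 libraries, coloured by mark as named in the title. The SMAD4 row is open in all 23, and the butyryl columns are filled only for SMAD2 and ID1.

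Whether propionyl marks covered these genes more than acetyl marks of the same cells was tested with limma on log2(percent covered + 1) over 18849 protein-coding genes. All differences given from here on are on that log2 scale, which understates the change of sparsely covered genes, with standard error (SE) and Benjamini-Hochberg adjusted p. In data simulated for H3K18pr against H3K18ac, each gene kept in each group the spread of its 2 replicates. Most calls of this test were then false, with and without precision weights, so adjusted p-values may be too small where groups differ in spread. A spread taken from 2 values is itself very uncertain, and the part of this in the false calls was not tested. H4K12pr exceeded H4K12ac in NaPr for 6 of 9 members (35.9% of all genes higher) and fell below it for none (1.11% of all genes). The 6 were ID1 (4.39, SE 0.74, adjusted p = 0.000815), ID3 (3.42), ID2 (3.03), SMAD7 (3.01), SMAD6 (2.51) and SMAD3 (1.52, SE 0.44, adjusted p = 0.0162). The median difference was 2.51 over the 9 members and 1.08 over all genes. Both propionyl libraries stood above both acetyl libraries for 8 of 9 members (65.1% of all genes). With the 8158 best regions of each list, 2 calls were left, ID1 (4.60, adjusted p = 0.0310) and SMAD3 (1.73, adjusted p = 0.0233). Equal numbers of regions do not equalise their widths. Over the full lists the median region was 513 and 490 bp wide for H4K12pr and 256 and 246 bp for H4K12ac NaPr. The part of region width in these calls was not tested. With every library centred on its own mean, all-gene calls split into 2907 higher and 3668 lower in place of 6760 and 210, and 4 members were higher (ID1, ID3, SMAD7 and SMAD6) and SMAD2 was lower (-0.83, adjusted p = 0.0472). Without H4K12pr replicate 1, 3 were called. Run and mark cannot be told apart here. The same H4K12ac NaPr pair also enters 3 tests below. These are the difference between H3K18 and H4K12 effects, H4K12ac after NaPr, and H3K18ac against H4K12ac in NaPr. Results of these tests are therefore not independent of each other.

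H3K18pr and H3K18ac in NaPr gave no call among the 9 members in either direction (0.286% and 0.202% of all genes). At an unadjusted p under 0.05, limma called 0 of 9 members and 1985 of 18849 genes. With precision weights 0 members were called, with 25 genes higher and 44 lower. SMAD3 differed by 0.52 (SE 0.44) and ID1 by 0.25 (SE 0.74), and member medians were 0.03 against -0.11 over all genes. With equal numbers of regions TGFBR2 was called higher. Without H3K18ac NaPr replicate 2, TGFBR1 was called lower, and the calls over all genes went from 54 higher and 38 lower to 275 and 2105. Without the long replicate 1 no member was called.

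The test of the difference between these comparisons, H3K18 effect minus H4K12 effect, called ID1 alone among the members (18.7% of all genes called). For ID1 it was -4.14 (SE 1.04, limma adjusted p = 0.0179). The H3K18 effect was 0.25 and the H4K12 effect 4.39. ID3 (-3.62, adjusted p = 0.0508) and SMAD6 (-2.01, adjusted p = 0.0565) lay just outside the threshold. The same test called no member for butyryl minus acetyl in NaBu (0% of all genes), for the acetyl marks after NaPr (0.79%) or after NaBu (0.0531%). The 2 H4K12ac NaPr lists occupied 27.5% and 34.5% of all gene starts, against 65.5% and 65.6% in untreated cells, at 130361 to 208823 regions a list, and the part of this in the ID1 value was not tested.

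Butyryl marks were set against acetyl marks in NaBu, all from 1 run. H3K18bu fell below H3K18ac for 4 of 9 members (27.4% of all genes) and exceeded it for none (0% of all genes). These were ID3 (-3.18, SE 0.86, adjusted p = 0.0178), SMAD7 (-2.40, adjusted p = 0.0321), SMAD6 (-2.19, adjusted p = 0.00883) and SMAD3 (-1.25, adjusted p = 0.0485). The median was -1.67 over the members and -1.03 over all genes, and both butyryl libraries lay below both acetyl ones for 9 of 9 members (68.5% of all genes). The H3K18bu lists hold 22059 and 22497 regions and the H3K18ac lists 60344 and 116459. With equal numbers of regions 1 member was called, SMAD6, in the opposite direction (0.54, adjusted p = 0.00496), and with libraries centred 0 were. Leaving out either H3K18bu replicate or H3K18ac replicate 1 left 0 calls, and leaving out H3K18ac replicate 2 left 2.

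H4K12bu against H4K12ac gave no call among the members or among all 18849 genes in limma (0% in both directions), with 1439 genes and 3 members at an unadjusted p under 0.05 and with 0 members but 23 genes called lower with precision weights. The median was -1.10 over the members and -0.48 over all genes. ID1 had -2.09 (SE 0.74). Without H4K12ac replicate 2, the list of 11680 regions, the median over all genes was -0.94.

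Treatment was examined through the acetyl marks. After NaPr, H4K12ac fell for 6 of 9 members (30.1% of all genes lower) and rose for none (0.822%). The changes were ID1 -3.66 (SE 0.74, adjusted p = 0.00383), SMAD7 -3.64 (adjusted p = 0.00451), ID3 -3.39, ID2 -3.32, SMAD6 -1.65 and SMAD2 -1.08 (adjusted p = 0.0140). The medians were -1.65 for the members and -1.06 for all genes, and the groups did not overlap for 9 of 9 members (71.5% of all genes lower). Within equal numbers of regions no member was called. With libraries centred, all-gene calls were 2501 higher and 2031 lower in place of 155 and 5667, and SMAD7, ID1, ID2 and ID3 were called lower. Leaving out H4K12ac NaPr replicate 2 or untreated replicate 1 left 2 calls, and untreated replicate 2 left 3. H3K18ac after NaPr changed for none of the 9 (0.0424% of all genes higher, 0.0371% lower). An unadjusted p under 0.05 in limma was reached by 0 of 9 members and 880 of 18849 genes. With precision weights 0 members were called, with 6 genes higher and 5 lower.

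After NaBu, H4K12ac fell for 7 of 9 members (68.3% of all genes lower) and rose for none (0.0955%). SMAD7 changed by -3.64 (SE 0.76, adjusted p = 0.00112), ID2 by -3.29, TGFBR1 by -2.68, ID3 by -2.50, SMAD3 by -2.26, TGFBR2 by -1.88 and SMAD6 by -1.37. ID1 (-0.95) and SMAD2 (-0.52) were not called. The medians were -2.26 for the members and -1.95 for all genes, and the groups did not overlap for 9 of 9 members (79% of all genes lower). No member was called with equal numbers of regions and 4 were without the short H4K12ac NaBu replicate 2. With libraries centred, all-gene calls were 3726 higher and 3271 lower in place of 18 and 12865, SMAD7 was called lower (-1.79) and SMAD2 higher (1.33, adjusted p = 0.00474). H3K18ac after NaBu gave no call among the 9 (0.286% of all genes higher, 7.93% lower). An unadjusted p under 0.05 in limma was reached by 0 of 9 members and 5137 of 18849 genes. With precision weights 0 members were called, with 42 genes higher and 1360 lower. ID1 had a positive difference of 0.40 (SE 0.74). NaBu and untreated libraries came from different runs, which cannot be told apart from treatment.

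**Figure D5:**
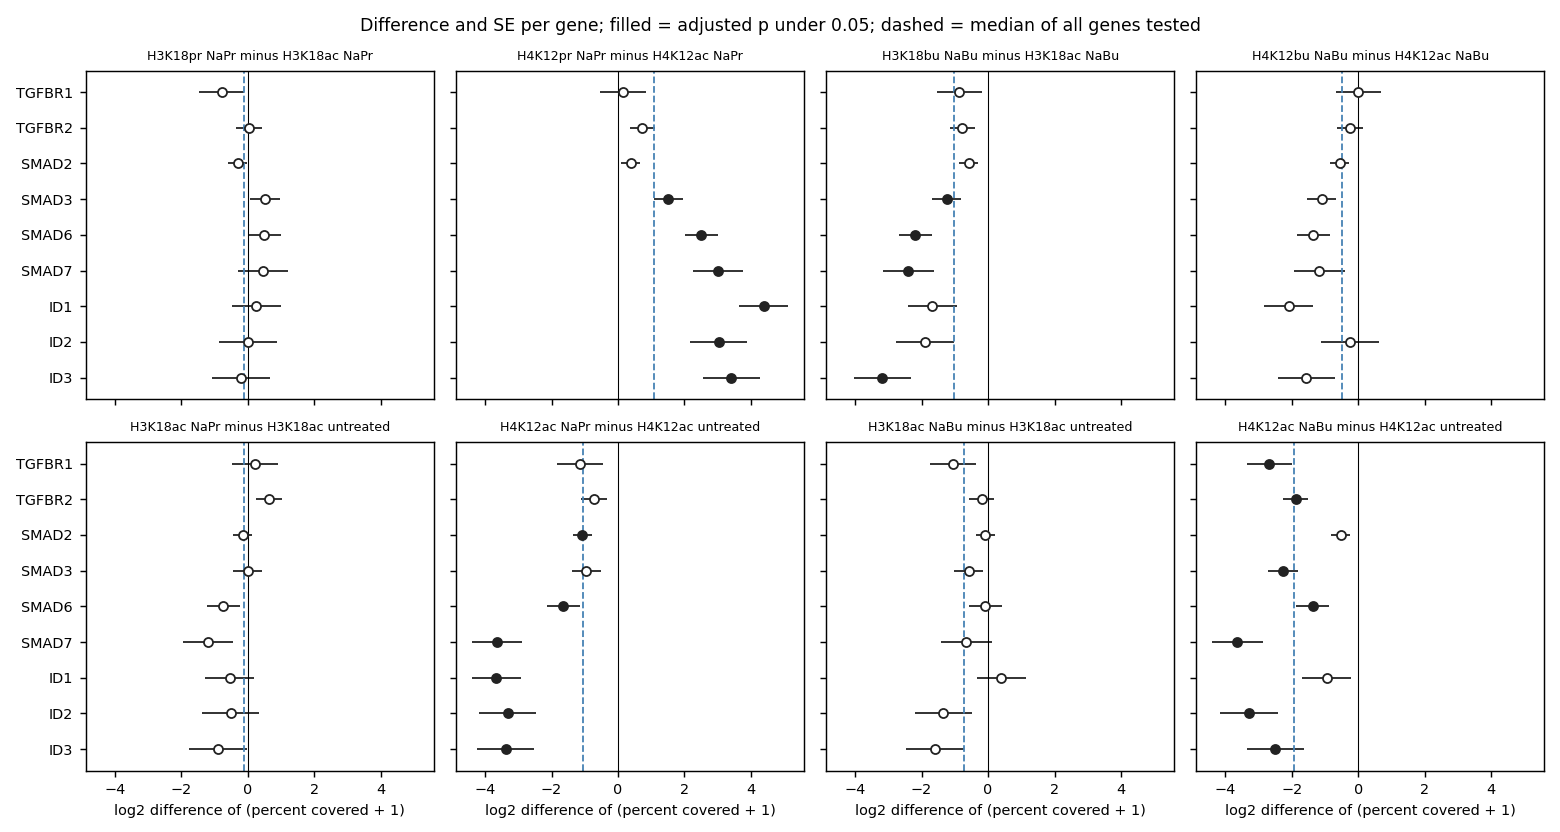
Difference of log2(percent covered + 1) with its SE for the 9 tested members in 8 comparisons of mark or treatment; filled points have a limma adjusted p under 0.05 and the dashed line is the median of all 18849 genes. In 4 panels points are filled, on the side of 0 on which the dashed line lies.

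Histone site was compared within each condition. In NaPr cells H3K18ac exceeded H4K12ac for 5 of 9 members (15.3% of all genes higher, 0.578% lower), namely ID1 (4.09, SE 0.74, adjusted p = 0.00273), ID2 (3.38), ID3 (3.20), SMAD7 (2.82) and SMAD2 (1.14). Without H3K18ac replicate 1, the doubted list, 1 call was left, without H4K12ac replicate 1 also 1, without H4K12ac replicate 2 there were 2, and with equal numbers of regions 0. With libraries centred, 4 were called, and all-gene calls were 1783 higher and 1157 lower in place of 2880 and 109. In NaBu cells it exceeded H4K12ac for SMAD7 (3.37, SE 0.76, adjusted p = 0.0169), SMAD6 (1.71) and SMAD3 (1.64), 3 of 9 members (12.5% of all genes higher, 0.0106% lower). Leaving out either H4K12ac NaBu list gave 7 (without replicate 1) or 0 (without replicate 2), and leaving out H3K18ac replicate 1 or 2 gave 0 or 1. No member was called between H3K18 and H4K12 sites for untreated acetyl (0.0584% and 0.0637% of all genes), propionyl (0.355% and 0.971%) or butyryl marks (0.0212% and 0%). At an unadjusted p under 0.05, limma gave 0, 0 and 4 members, and 2842, 4282 and 1142 of 18849 genes. Precision weights gave 0 members.

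The other genes of the TGF-beta and BMP pathway were counted from a list of 41, of which 40 passed the filter. H4K12pr against H4K12ac in NaPr was higher for 17 (42.5%, against 35.9% of all genes) and lower for none, led by INHBB, an activin and inhibin subunit (31.1% against 0% of its window, difference 4.98, SE 0.57, adjusted p = 9.52e-05). H3K18bu was below H3K18ac in NaBu for 13 (32.5%, against 27.4%) and above for none, again led by INHBB (0.938% against 34.1%, difference -4.35). H4K12ac fell for 10 after NaPr (25%, against 30.1%) and 29 after NaBu (72.5%, against 68.3%) and rose for none, with SMURF2, a ubiquitin ligase that acts with SMAD7 on the receptors, leading after NaBu (49.97% to 1.91%, difference -4.52). H3K18ac fell for 3 after NaBu (7.5%, against 7.93%), led by the BMP antagonist NOG (22.7% to 0%, difference -4.56). H3K18ac exceeded H4K12ac for 8 in NaPr (20%, against 15.3%) and 12 in NaBu (30%, against 12.5%), the latter led by BAMBI, a decoy receptor (13.7% against 0.613%, difference 3.28).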

How the data were processed

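Per the labels and the study's methods, the authors demultiplexed reads with bcl2fastq 2.17.1, trimmed with cutadapt 1.8.1, aligned to hg38 with Bowtie2 2.3.1 and called peaks per library with MACS2 2.1.0 at p 0.01, removing blacklisted regions. The deposited peak lists give the fold enrichment (a ratio), −log10 p and −log10 q of each region and its summit as a deposited score; the control of the input lists is not given in the sources used here. The study's methods state only an average depth over samples. The depth of each library is not given in the sources used here, so list length is given in its place. The list names of the acetyl NaBu libraries carry the tag of the untreated ones, and groups follow the labels. Genes and start sites came from GENCODE 44 on the same build.

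Coverage was tested in R 4.3.3 with limma 3.58.1 (trend) over 20 libraries, for genes covered in at least 2, with a pseudocount of 1 percentage point. The test was tested on simulated data for H3K18pr against H3K18ac. It kept false calls low with equal spread in all groups. Most calls were false when each gene kept, in each group, the uncertain spread of its 2 replicates. Precision weights, added after seeing the data, did not remove this. Alternatives were regions with q under 0.05, equal numbers of regions (8158), flanks of 1 kb, a pseudocount of 0.1, no filter, centred libraries, a replicate block and each library left out. Members were named by the choice of genes, and of the other pathway genes the called one with the largest change in a direction. The members and lists were chosen with earlier results of these data known.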

Additional observations from a re-analysis of the deposited data

Results flagged for a closer look

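ID1 differed between the histone sites in its propionyl minus acetyl contrast in NaPr cells, by -4.14 on the log2 scale (H3K18 effect minus H4K12 effect), in a limma test of the difference itself. The effects were 0.25 at H3K18 and 4.39 at H4K12. Coverage of ID1 was 2.07% and 0% in the H4K12ac NaPr libraries and 27.7% to 42.7% in the other 6 libraries of NaPr cells.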

How the results depend on the processing

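With equal numbers of regions, 10897 genes were tested and TGFBR1 and ID3 were not among them, so fewer calls are in part built in. With equal numbers of regions, calls went from 0 to 1 (H3K18pr against H3K18ac in NaPr, H3K18pr against H4K12pr, H3K18bu against H4K12bu, H3K18ac against H4K12ac in untreated cells) or to 2 (H3K18ac after NaBu, ID2 higher and TGFBR2 lower). They went from 6 to 2 for H4K12pr against H4K12ac, from 4 to 1 for H3K18bu against H3K18ac, from 6 and 7 to 0 for H4K12ac after NaPr and after NaBu, and from 5 to 0 (NaPr) and 3 to 1 (NaBu) for H3K18ac against H4K12ac. Differences that changed sign there were SMAD6 -0.16 and SMAD7 -0.47 (H4K12pr against H4K12ac), SMAD6 0.54 (H3K18bu against H3K18ac), SMAD6 0.16 and SMAD7 0.47 (H4K12ac after NaPr), ID2 0.92 and TGFBR2 0.13 (H4K12ac after NaBu) and SMAD7 -0.47 (H3K18ac against H4K12ac in NaPr). With libraries centred, 0 members were called for H3K18bu, 2 for H4K12ac after NaBu (SMAD7 lower, SMAD2 higher) and 1 for H3K18ac against H4K12ac in NaBu, and SMAD2 (0.055, after NaPr) and SMAD6 (0.48, after NaBu) changed sign for H4K12ac. With a pseudocount of 0.1, 3 were called for H4K12pr, 1 for H4K12bu against H4K12ac, 3 for H4K12ac after NaPr and 2 for H3K18ac against H4K12ac in NaPr. Over all 18849 genes this pseudocount gave 2983 higher and 142 lower for H4K12pr. It gave 2 and 749 for H4K12bu against H4K12ac, and 81 and 2037 for H4K12ac after NaPr. With flanks of 1 kb, 1 was called for H3K18bu (of 18324 genes 2 higher and 4188 lower) and 3 for H3K18ac against H4K12ac in NaPr. With q under 0.05, 7 were called for H3K18bu (of 18549 genes 0 higher and 6009 lower) and 7 for H3K18ac against H4K12ac in NaBu. Over all genes, centred calls were 102 higher and 969 lower for H3K18bu (0 and 5171 uncentred), 665 and 88 for H3K18ac against H4K12ac in NaBu (2349 and 2) and 273 and 531 for H3K18ac after NaBu (54 and 1495). Equal numbers gave 1748 and 114 for H4K12pr, 64 and 910 for H3K18bu, 78 and 1930 for H4K12ac after NaPr and 196 and 2184 after NaBu. Over all alternatives but leaving out a library, genes called numbered 38 to 1145 (92 as reported) for H3K18pr against H3K18ac, 1862 to 9594 (6970) for H4K12pr, 974 to 7006 (5171) for H3K18bu, 0 to 751 (0) for H4K12bu, 11 to 782 (15) and 358 to 4144 (1549) for H3K18ac after NaPr and NaBu, and 2008 to 8980 (5822) and 2380 to 14225 (12883) for H4K12ac. Between sites they numbered 70 to 1349 (250) for propionyl, 3 to 335 (4) for butyryl and 14 to 1403 (23), 1002 to 4783 (2989) and 666 to 4966 (2351) for acetyl in untreated, NaPr and NaBu cells. The cause was not tested.

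Leaving out 1 library at a time gave 3 to 6 calls for H4K12pr, 0 to 1 for H3K18pr, 0 to 2 for H3K18bu, 0 to 4 for H4K12bu, 2 to 4 and 4 to 7 for H4K12ac after NaPr and NaBu, 1 to 6 and 0 to 7 for H3K18ac against H4K12ac in NaPr and NaBu, 0 to 1 for H3K18bu against H4K12bu, and 0 in the other 4 comparisons. A lone library left in a group is assumed to vary like the others. Deviations of same-numbered libraries correlated only weakly, by -0.13 to 0.24 over 45 pairs of groups (median 0.04, 10 pairs over 0.1). A shift common to all genes of a library does not enter this correlation, so it cannot settle whether replicate numbers pair the libraries. The fit with the replicate block called 5 in place of 3 members for H3K18ac against H4K12ac in NaBu and changed no other count of members by over 1.5 times. Over all genes it called 1207 in place of 183 lower for H3K18pr against H4K12pr, 92 in place of 0 for H4K12bu against H4K12ac, 73 in place of 4 for H3K18bu against H4K12bu, 2784 in place of 1495 lower for H3K18ac after NaBu and 4204 in place of 2349 higher for H3K18ac against H4K12ac in NaBu.

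Starts occupied in both replicates, with equal numbers of regions, numbered 2 for H3K18pr, H4K12pr and H3K18ac untreated, 1 for H3K18ac NaBu and 0 for H3K18bu, H3K18ac NaPr, H4K12ac NaPr and H4K12ac untreated. Over the start base itself they numbered 2 for H3K18pr and H3K18ac untreated, 1 for H3K18ac NaBu and 0 for H4K12pr, H3K18bu, H3K18ac NaPr and all H4K12ac groups. With q under 0.05 they were 0 for H3K18bu and 1 for H4K12ac NaPr and NaBu. Shares over all genes were not computed for these settings, so these counts do not set the members apart from other genes. With 1 library in place of 2, the counts were 7 to 8 for H3K18pr, 6 to 8 for H4K12pr, 8 to 9 for H3K18ac NaPr, 3 to 4 for H4K12ac NaPr, 2 to 5 for H4K12ac NaBu, 0 to 1 for H4K12bu, and 8 for H3K18ac NaBu, 9 for H3K18ac untreated, 8 for H4K12ac untreated and 2 for H3K18bu with either library. The read depth of each library is not given in the sources used here, and a peak list does not show signal below its threshold.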
